A study of Mus musculus with 5 samples.

Results

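The 32 genes described here encode actin and the proteins that build, cut, bundle, pull and anchor actin filaments. They were taken by symbol from a deposited table of 19127 genes, and all 32 were present once each. The study sorted neutrophils on Ly6G from the blood of male mice aged 7 to 10 weeks, after red cell lysis, at Zeitgeber time 13. There were 2 libraries from BMALf/f x Mrp8Cre mice, numbered 2 and 3, and 3 libraries from CXCR4f/f x Mrp8Cre mice, numbered 1, 2 and 3. Bmal1 (gene symbol Arntl) is an activating factor of the core clock. Cxcr4 encodes a chemokine receptor that holds neutrophils in the bone marrow. All mice of both groups thus carried a floxed gene and the same Cre, whose Mrp8 promoter is used mainly by neutrophils and other myeloid cells. A group without Cre was not analysed here, so no difference can be assigned to 1 genotype. No label says whether each library came from 1 animal, so a p-value here reflects library-to-library spread that may be technical in part.

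Neutrophils crawl by assembling a branched actin network at the front and contracting an actomyosin rear. Chemoattractant receptors activate small GTPases through exchange factors such as DOCK2. RAC and CDC42 then act through WASP and WAVE proteins on the Arp2/3 complex, which nucleates branches on existing filaments, while cofilin, profilin and thymosin control the supply of monomers. Many of these proteins exist as a leukocyte form and a broadly expressed form, as with RAC2 and RAC1 or L-plastin (Lcp1) and T-plastin (Pls3). On this textbook basis 11 members were classed as haematopoietic-restricted (Coro1a, Rac2, Dock2, Dock8, Fmnl1, Was, Arhgdib, Fermt3, Lcp1, Lsp1 and Hcls1). The other 21 were classed as ubiquitous, among them Arpc1b, although it is enriched in blood cells. The classes were set with earlier results of these data known, so contrasts between them are descriptions only.

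Values are normalised read counts as deposited by the authors. Whole reads could be recovered from them and summed to between 356872 (Cxcr4-labelled library 1) and 9101826 (Cxcr4-labelled library 3) per library. The fewest reads of any member in any library were 26, so no member was near the detection floor of 3 reads. The targeted genes were read as a check of the labels. Cxcr4 stood at 398.6 and 127.8 in the Bmal1-labelled libraries (2 and 3, in that order here and below). In the Cxcr4-labelled libraries (1, 2 and 3, in that order) it stood at 15.1, 72.2 and 4.80. Arntl stood at 4.81 and 27.6 in the Bmal1-labelled libraries and at 15.1, 1.90 and 1.05 in the others. Its higher mean in the Bmal1-labelled group goes against its label, but the groups overlapped. These values rest on 16 and 123 against 7, 9 and 9 reads. That of Cxcr4 in Cxcr4-labelled library 1 also rests on 7. Reads outside a floxed segment can remain, so the groups are named by their labels throughout.

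The libraries also differed in cell markers. A list of 14 core neutrophil genes held 1.08% and 0.748% of the Bmal1-labelled columns. Its share of the Cxcr4-labelled columns was 2.08%, 0.447% and 0.0391%. Ly6g itself, the sorting marker, had values of 6.31 and 5.16 against 30.1, 0 and 1.05. Elane and Mpo, granule genes of marrow precursors on the same list, were at 0 in 4 and 3 of the libraries. The summed share of 8 pan-leukocyte genes was 0.508% and 0.290%, against 0.386%, 0.0989% and 0.0149%. Endothelial genes, a list of 10 with none at 0 in any library, ran the other way, at 0.480% and 0.627% against 0.517%, 0.849% and 1.02%. Of these 10, 7 were highest in Cxcr4-labelled library 2 and 3 (Kdr, Tek and Robo4) in library 3. Without Kdr the list held 0.396% and 0.333% against 0.354%, 0.688% and 0.452%, so the order of libraries 2 and 3 rests on that gene. Cxcr4-labelled library 3, with the lowest neutrophil share, therefore stands furthest from its label as sorted neutrophils. It is not the only library with such values. In Cxcr4-labelled library 2 Ly6g was at 0, and the endothelial share (0.849%) was above the core neutrophil share (0.447%). Endothelial genes held at least 0.480% of every column, Bmal1-labelled ones included. Class medians and the differences of some genes are given below with and without Cxcr4-labelled library 3. Leaving it out does not make the others pure. The plot of member differences shows both values for every member. Where no value without it is given, as for most gene pairs, a difference includes that library. In bulk samples fewer cells of a type and less RNA per cell cannot be told apart.

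Promoter windows, from 250 bases before to 50 bases after a transcription start, were taken from RefSeq (GRCm38.p6) for 28 of the 32 members. Those of Actb, Lsp1, Rac1 and Rac2 were not used here. They are shown for 2 haematopoietic members that were low in the same libraries and for a ubiquitous actin, 5′ to 3′ on the strand of the gene. Capitals mark matches on either strand to the PU box GAGGAA, bound by the myeloid factor PU.1, to the E-box CACGTG, bound by CLOCK and BMAL1, and to the CArG box, bound by serum response factor. The Coro1a window (chr7:126704767-126705066, minus strand) holds none of the 3, and its gene encodes the leukocyte actin-binding protein coronin 1A.
Coro1a: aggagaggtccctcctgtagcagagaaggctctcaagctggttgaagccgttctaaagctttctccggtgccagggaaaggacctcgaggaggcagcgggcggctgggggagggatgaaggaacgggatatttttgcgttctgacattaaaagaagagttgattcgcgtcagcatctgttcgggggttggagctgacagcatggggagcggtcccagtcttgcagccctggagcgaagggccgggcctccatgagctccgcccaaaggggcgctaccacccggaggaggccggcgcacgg
The Dock2 window (chr11:34783856-34784155, minus strand) holds 2 PU boxes and neither other motif.
Dock2: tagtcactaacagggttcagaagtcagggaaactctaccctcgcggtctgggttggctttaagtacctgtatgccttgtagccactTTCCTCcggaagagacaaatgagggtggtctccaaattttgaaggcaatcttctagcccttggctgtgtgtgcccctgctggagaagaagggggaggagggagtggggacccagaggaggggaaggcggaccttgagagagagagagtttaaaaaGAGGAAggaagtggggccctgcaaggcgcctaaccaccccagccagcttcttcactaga
The Actg1 window (chr11:120348446-120348745, minus strand) holds 1 E-box and 1 CArG box.
Actg1: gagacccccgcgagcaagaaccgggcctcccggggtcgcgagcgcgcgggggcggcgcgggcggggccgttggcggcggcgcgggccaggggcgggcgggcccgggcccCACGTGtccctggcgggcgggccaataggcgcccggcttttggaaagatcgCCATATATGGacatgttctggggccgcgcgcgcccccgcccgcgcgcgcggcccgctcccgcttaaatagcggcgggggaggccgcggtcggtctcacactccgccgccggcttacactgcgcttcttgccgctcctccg

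These motifs were then counted over all member windows. PU boxes occurred in 4 of 13 windows of haematopoietic members (30.8%), in 7 of 23 of ubiquitous members (30.4%) and in 28.3% of all 32851 windows of this length. The E-box was in 0 of 13 and 3 of 23 windows (Arpc5, Actg1 and Msn), against 7.15% of all windows. The CArG box was in 0 and 1 windows, against 1.63% of all. No matches overlap in the printed windows, and a match is a description of letters and not of binding.

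No member passed the test between the groups. limma called 0 of 32 members and 0% of the 14632 genes tested at an adjusted p under 0.05, and no member had an unadjusted p under 0.05 with limma, edgeR or DESeq2. Each member had a limma adjusted p of 0.9999. The lowest unadjusted p was that of Rac2, 0.0666. edgeR also called 0% of genes and DESeq2 0.0888%, none of them members. At an unadjusted p under 0.05 the background was 4.18% of genes for limma, 3.58% for edgeR and 4.66% for DESeq2. Without Cxcr4-labelled library 1, 17 members (all 11 haematopoietic ones and 6 ubiquitous) had a limma unadjusted p under 0.05, where 10.7% of all genes did, and still none passed after adjustment (lowest adjusted p 0.45).

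The direction of the values was nevertheless shared. The Bmal1-labelled mean on the log2(value + 1) scale was higher for 29 of 32 members, where 55.2% of all tested genes had a positive difference. The median difference was 1.58 over the haematopoietic members, 0.56 over the ubiquitous members and 0.11 over all tested genes. On recovered reads the corresponding medians were 0.88, 0.40 and -0.086 with edgeR and 0.79, 0.36 and -0.099 with DESeq2. Leaving out Cxcr4-labelled library 3 gave class medians of 0.68 and 0.32, and leaving out Cxcr4-labelled library 1 gave 2.42 and 0.80. All 11 haematopoietic members were positive in the main test and in each of its 16 alternatives, which share libraries. For the 21 ubiquitous members the count was 18 and ran from 17 to 20. Members were measured in the same libraries and are not independent of each other, so these counts are descriptions only. The difference between the class medians, 1.02, is a description without a test. It was 0.48 with edgeR, 0.43 with DESeq2 and 0.36 without Cxcr4-labelled library 3.

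**Figure D1:**
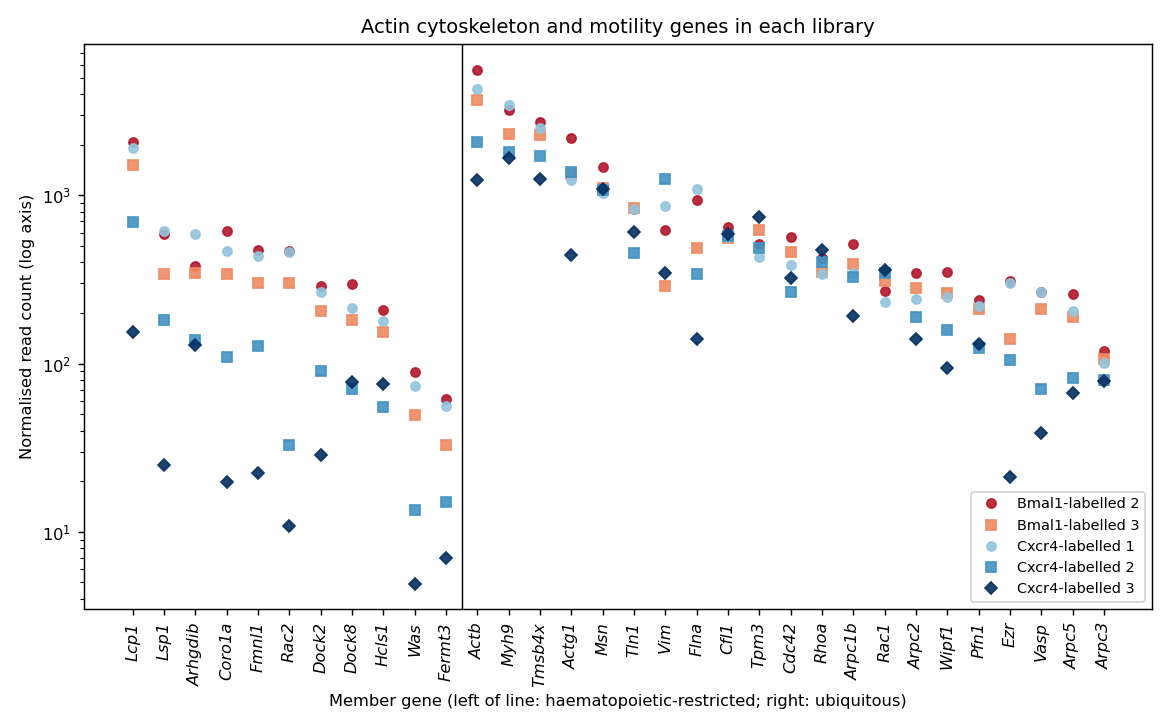
Normalised read count (log axis) of each of the 32 members in each of the 5 libraries, 1 point per library, with haematopoietic-restricted members left of the line. For all 11 of these the points of Cxcr4-labelled libraries 2 and 3 lie below the other 3, while Rac1, Rhoa and Cfl1 on the right are nearly level.

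The spread lay inside the Cxcr4-labelled group more than between the groups. For all 11 haematopoietic members, Cxcr4-labelled libraries 2 and 3 were the lowest of the 5, an order seen in 14 of 21 ubiquitous members and in 15.6% of all tested genes. This order was singled out after the values were seen. Cxcr4-labelled library 1 lay within the range of the Bmal1-labelled pair for 9 of the 11 and above it for Lsp1 and Arhgdib. As a result the groups overlapped for all 11. Within the Cxcr4-labelled group the highest value was a median of 12.4 times the lowest for haematopoietic members and 1.81 times for ubiquitous members. Over the 11118 tested genes with a read in all 3 of these libraries that median was 3.43. This background is not matched for level. The median mean value over all tested genes was 14.6, below that of the lowest member (Fermt3, 34.4), so 3.43 is not a like measure. Relative to the Bmal1-labelled mean, the median haematopoietic member was at 108.4% in Cxcr4-labelled library 1, at 31.9% in library 2 and at 8.66% in library 3. The corresponding levels of ubiquitous members were 91.6%, 65.2% and 58.0%. Core neutrophil and pan-leukocyte sums were also lowest in Cxcr4-labelled libraries 2 and 3, and their part in these values was not tested. Of the core neutrophil genes, S100a9, Ngp, Camp, Elane and Mpo did not share that order, while the others did. Ngp had 7.52 and 6.28 in the Bmal1-labelled libraries against 1229, 15.8 and 25.6.

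**Figure D2:**
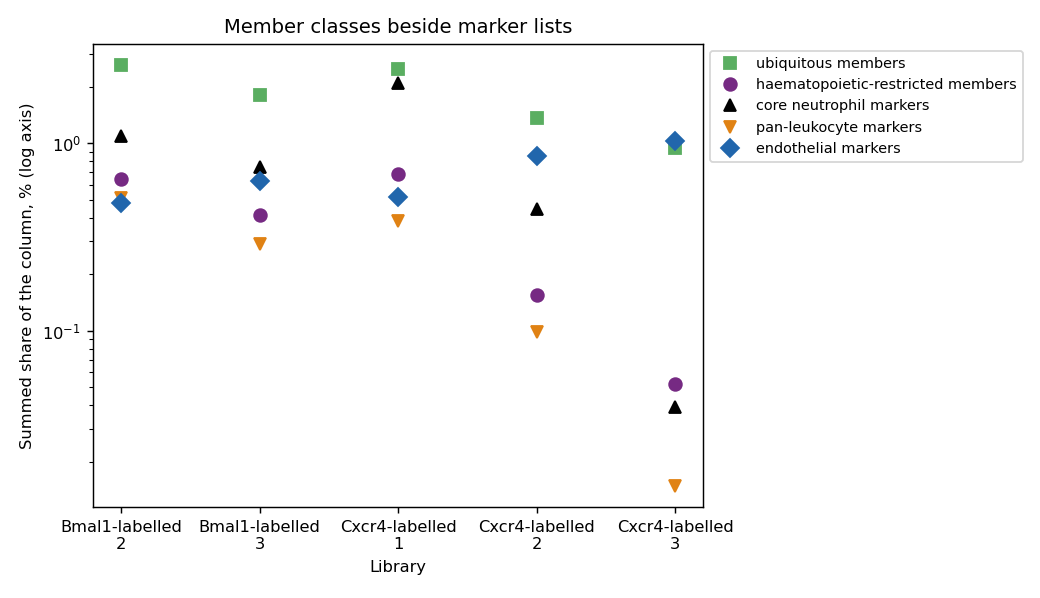
Summed share of each library's column in percent (log axis) for the 2 member classes and for 3 marker lists. The haematopoietic members go from 0.687% in Cxcr4-labelled library 1 to 0.0521% in library 3, as pan-leukocyte markers go from 0.386% to 0.0149%, and endothelial markers sum to 1.02% in library 3, of which Kdr alone is 0.569%.

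Among the small GTPases, which switch the actin machinery on, the leukocyte form and its broadly expressed relatives had different patterns. Rac2 (ENSMUSG00000033220, chromosome 15, 78559167 to 78572783 of GRCm38), the neutrophil Rac needed for directed movement and the oxidative burst, stood at 469.3 and 300.0 in the Bmal1-labelled pair. Its Cxcr4-labelled values were 458.5, 32.9 and 10.9. Library 1 thus fell between the Bmal1-labelled libraries, and the other Cxcr4-labelled libraries were far below. The group means were 384.7 ± 119.7 (SD, n = 2) and 167.4 ± 252.3 (SD, n = 3), and the limma difference was 2.72 (SE 1.29), or 1.59 without Cxcr4-labelled library 3. On recovered reads it was 1.10 with edgeR and 0.99 with DESeq2. Rac1, its ubiquitous relative (chromosome 5, 143503634 to 143528036), had means of 289.1 ± 27.1 (SD, n = 2) and 313.3 ± 70.5 (SD, n = 3), with a difference of -0.092 (SE 0.45). Rhoa, which drives contraction at the rear, averaged 386.6 against 405.5. The signs of the Rac1 and Rhoa differences flipped without Cxcr4-labelled library 3.

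Cdc42, which sets polarity, was one of the ubiquitous members with the lowest p-values. It had 566.7 and 462.1 in the Bmal1-labelled libraries and 383.1, 267.5 and 320.7 in the Cxcr4-labelled ones, with no overlap. The difference was 0.67 (SE 0.45, limma unadjusted p 0.171) and 0.68 without Cxcr4-labelled library 3.

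Dock2 and Dock8, the exchange factor genes among the members, were likewise lowest in Cxcr4-labelled libraries 2 and 3. Dock2 (chromosome 11, 34226815 to 34783892), which activates RAC in leukocytes and whose promoter is shown above, had 287.7 and 204.7 against 266.9, 89.9 and 28.8. Dock8, an activator of CDC42 that protects migrating leukocytes in tight spaces, had 297.3 and 180.7 against 215.3, 70.3 and 77.4. For both, Cxcr4-labelled library 1 lay between the Bmal1-labelled libraries. Arhgdib, which holds these GTPases in the cytosol, had 380.9 and 346.9 against 589.8, 138.5 and 129.3, with its highest value in Cxcr4-labelled library 1. The limma differences were 1.44 (SE 0.83) for Dock2, 1.13 (SE 0.60) for Dock8 and 0.72 (SE 0.69) for Arhgdib. Without Cxcr4-labelled library 3 they were 0.64, 0.91 and 0.34. Exchange factor genes outside the members, from a pathway list described below, were mixed. Dock5 and Prex1 were also lowest in Cxcr4-labelled libraries 2 and 3, while Dock1 (324.5) and Tiam1 (236.5) were highest in library 3.

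Nucleation and elongation factors formed the role with the highest median difference, 1.38 over 5 members, all positive. The median was 0.78 without Cxcr4-labelled library 3. Was, Fmnl1 and Hcls1 in this role are haematopoietic members, so role and class are mixed in that ranking. Was encodes WASP, the leukocyte activator of Arp2/3 mutated in Wiskott-Aldrich syndrome. It had 88.7 and 49.3 against 73.2, 13.5 and 4.92, a difference of 1.86 (SE 1.01), or 1.03 without Cxcr4-labelled library 3. The formin gene Fmnl1 had 472.0 and 300.9 against 437.0, 126.5 and 22.5, a difference of 1.79 (SE 1.04). Without that library its difference was 0.68. Hcls1 encodes HS1, the haematopoietic relative of cortactin that stabilises branches. It had 208.6 and 154.0 against 178.7, 55.5 and 75.4, so its lowest library was Cxcr4-labelled 2 and not 3. All 3 genes overlapped between the groups.

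The partners of these factors that were classed as ubiquitous behaved unequally. Vasp, which speeds filament elongation, had 265.2 and 211.2 against 264.8, 70.9 and 38.9, so its pattern resembled that of Was in order. Wipf1 encodes WIP, which shields WASP from degradation. It had 352.6 and 262.6 against 249.7, 157.7 and 93.8, with no overlap, and a difference of 0.97 (SE 0.53, limma unadjusted p 0.102).

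The Arp2/3 complex nucleates the branches, and each of its 4 subunits among the members was positive with its lowest value in Cxcr4-labelled library 3. Its other genes, from the pathway list, were mixed. Actr2, Actr3 and Arpc4 had positive differences (0.46, 0.37 and 0.47), Actr2 with its lowest value in Cxcr4-labelled library 2. Arpc1a and Arpc5l had negative ones (-0.38 and -0.24), and Arpc1a was highest in Cxcr4-labelled library 3 at 125.5. Arpc5 had 257.9 and 188.4 against 204.5, 82.3 and 66.7, a difference of 1.08 (SE 0.57, limma unadjusted p 0.0967, the lowest among ubiquitous members). Arpc2 had 347.5 and 282.8 against 241.1, 188.5 and 140.3. Arpc1b, the subunit form enriched in blood cells, had 511.7 and 389.7 against 344.4, 327.2 and 191.5.

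Arpc3 had means of 112.6 ± 9.19 (SD, n = 2) and 86.6 ± 12.6 (SD, n = 3), and a difference of 0.38 (SE 0.44). Groups did not overlap for Arpc1b, Arpc2 and Arpc3. In all, 7 of 32 members (21.9%) separated the groups, each higher in the Bmal1-labelled libraries, where 13.6% of all tested genes did so. All 7 were ubiquitous: these 3 with Cdc42, Wipf1, Msn and Tln1. The margins were small for Msn (1105.9 as the lower Bmal1-labelled value, 1097.7 as the highest Cxcr4-labelled value) and for Tln1 (833.4 and 828.7).

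The most abundant members were thymosin beta 4, both actins and cofilin. Per kilobase of merged exons, the mean level over the 5 libraries was 1532.7 for Tmsb4x, 1260.0 for Actb and 495.9 for Actg1, and the next was Cfl1 at 206.4. Among haematopoietic members that level ran from 5.95 (Fermt3) to 185.7 (Arhgdib). Actb, encoding cytoplasmic beta-actin, had a normalised count of 5592 and 3679 against 4279, 2089.8 and 1238. Actg1, encoding gamma-actin, had 2207 and 1335.5 against 1233, 1369.7 and 445.2. For both the groups overlapped, through Cxcr4-labelled library 1 for Actb and library 2 for Actg1.

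Tmsb4x encodes thymosin beta 4, which sequesters monomers. It had 2731 and 2287 against 2518, 1720.8 and 1249, a difference of 0.51 (SE 0.63). Cfl1, for the filament-severing protein cofilin, had the narrowest range within the Cxcr4-labelled group. It averaged 602.5 ± 62.8 (SD, n = 2) against 576.8 ± 13.6 (SD, n = 3), and its highest Cxcr4-labelled value was 1.05 times the lowest. Pfn1, for profilin, averaged 225.3 against 158.0 and ranked 15 of 32 per kilobase. These abundant genes have processed pseudogenes among which reads can be split, so their levels are uncertain. Without Actb, Actg1, Cfl1, Pfn1, Tmsb4x and Tpm3 the median of ubiquitous members was 0.67.

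Coro1a (chromosome 7, 126699773 to 126707787) encodes the coronin of leukocytes, which works with Arp2/3 and cofilin in filament turnover. Its values were 611.8 and 343.1 against 467.1, 110.0 and 19.7. That is 4.12% of the Bmal1-labelled mean in Cxcr4-labelled library 3, where cofilin itself stood at 98.1%. The difference was 2.16 (SE 1.10, limma unadjusted p 0.084), the second highest of the members with limma, and 1.01 without that library. It was 1.18 with edgeR and 1.09 with DESeq2.

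**Figure D3:**
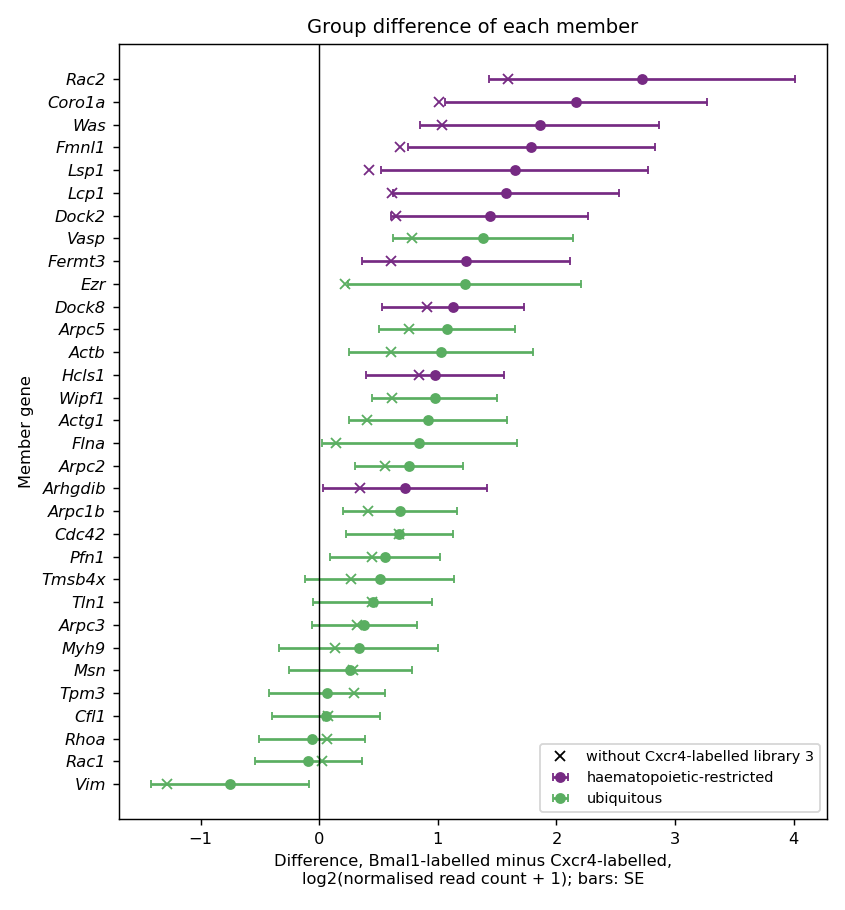
Difference of each member between the groups (Bmal1-labelled minus Cxcr4-labelled, log2 of normalised read count plus 1), with the SE from limma as bars and, as crosses, the value without Cxcr4-labelled library 3. Rac2 (2.72) and Coro1a (2.16) are highest with limma, while with edgeR and DESeq2 Coro1a and Was are above Rac2. Vim (-0.75) is the lowest, and no member passed the test.

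Genes for contraction, bundling and filaments ranged from -0.75 to 1.65 in difference, and 5 of 6 were positive. Lcp1, for L-plastin, which bundles actin in leukocytes, was the most abundant haematopoietic member by count. It had 2069 and 1509 against 1917.9, 694.8 and 154.9, a difference of 1.58 (SE 0.95), or 0.61 without Cxcr4-labelled library 3. Lsp1, for a leukocyte actin-binding protein of neutrophil migration, had 587.1 and 341.3 against 615.6, 182.4 and 24.9. Its difference of 1.65 (SE 1.12) was 0.42 without Cxcr4-labelled library 3, and its highest value was in Cxcr4-labelled library 1.

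Myh9, the heavy chain of the main non-muscle myosin of neutrophils, had 3242 and 2323 against 3439.7, 1812.9 and 1660.6, a difference of 0.33 (SE 0.67). Flna, which crosslinks filaments and binds integrins, had 934.7 and 484.8 against 1091, 340.7 and 140.8, so its highest and lowest values were both in the Cxcr4-labelled group. Tpm3, for a tropomyosin, averaged 568.2 against 556.8. Vim, for the intermediate filament protein vimentin, was the one member with a negative difference beyond its SE, -0.75 (SE 0.67), and -1.28 without Cxcr4-labelled library 3. Its values were 626.5 and 291.0 against 861.0, 1253.6 and 345.9, highest in Cxcr4-labelled library 2. In that library 7 of the 10 endothelial genes were also highest, and their part in the Vim values was not tested.

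Linkers tie the cortex to membrane and integrins. Fermt3 encodes kindlin-3, which activates integrins in blood cells. It had 61.3 and 32.7 against 56.0, 15.0 and 7.03, a difference of 1.24 (SE 0.88), or 0.60 without Cxcr4-labelled library 3. Tln1, for the integrin activator talin, averaged 838.0 ± 6.57 (SD, n = 2) against 631.7 ± 186.6 (SD, n = 3). The ERM proteins moesin and ezrin link actin to membrane proteins. Msn averaged 1291 against 1067 and its Cxcr4-labelled values differed by 1.06 times at most. Ezr averaged 225.5 against 143.3, and its Cxcr4-labelled values differed by 14.3 times, the widest range of any ubiquitous member. The ubiquitous class was therefore not uniform, and 7 of its 21 members (Ezr, Flna, Vasp, Vim, Actb, Actg1 and Arpc5) had ranges within the Cxcr4-labelled group (3.06 to 14.3 times) inside those of haematopoietic members (3.06 to 42.1 times).

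Ratios of related genes were then taken within each library, since a ratio does not depend on how columns were scaled apart from the pseudocount of 1. Of 15 pairs, 14 had a higher mean log2 ratio in the Bmal1-labelled group and 12 had their lowest ratio in Cxcr4-labelled library 3. In most pairs the numerator was a haematopoietic member, already described as lowest in Cxcr4-labelled libraries 2 and 3. These counts thus restate earlier values in part, and no share over other gene pairs was taken. A ratio can also reflect which cells a library held, which was not tested. The log2 ratio of Rac2 to Rac1 was 0.80 and -0.039 in the Bmal1-labelled libraries, against 0.98, -3.35 and -4.93 in the others. For Lcp1 to Pls3, the plastins of leukocytes and of other tissues, it was 5.01 and 3.89 against 4.39, 2.05 and -0.84. Cxcr4-labelled library 1 lay above both Bmal1-labelled libraries for Rac2/Rac1 and between them for Lcp1/Pls3.

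Cxcr4-labelled libraries 2 and 3 were also lowest for the regulators of nucleation. For Was to Wasl, its ubiquitous relative, the log2 ratio was -0.038 and -1.67 against -0.83, -3.02 and -6.15. For Fmnl1 to Fmnl2 it was 2.67 and 0.97 against 2.65, -0.84 and -3.70. For Hcls1 to Cttn it was 1.55 and 0.73 against 0.97, -1.58 and -1.63.

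The pairs of Dock2 to Dock1, Fermt3 to Fermt2, Coro1a to Coro1b, Coro1a to Coro1c and Nckap1l to Nckap1 each had the 2 lowest ratios in Cxcr4-labelled libraries 2 and 3. Their differences of means ran from 1.68 (Dock2/Dock1) to 2.33 (Nckap1l/Nckap1). Arhgdib to Arhgdia had a difference of 0.82. Arpc1b to Arpc1a was the one pair whose groups did not overlap, at 2.93 and 2.91 against 2.71, 2.24 and 0.61.

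Pairs of broadly expressed forms were mixed. Myh9 to Myh10 differed by 0.17 and Tln1 to Tln2 by 0.71, both lowest in Cxcr4-labelled library 2. Msn to Ezr differed by -0.97 and was highest, at 5.63, in Cxcr4-labelled library 3. No pair could pass: the smallest two-sided exact permutation p over the 10 splits of 5 libraries was 0.2, reached by Arpc1b/Arpc1a, with 0.75 after adjustment over the 15 pairs.

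**Figure D4:**
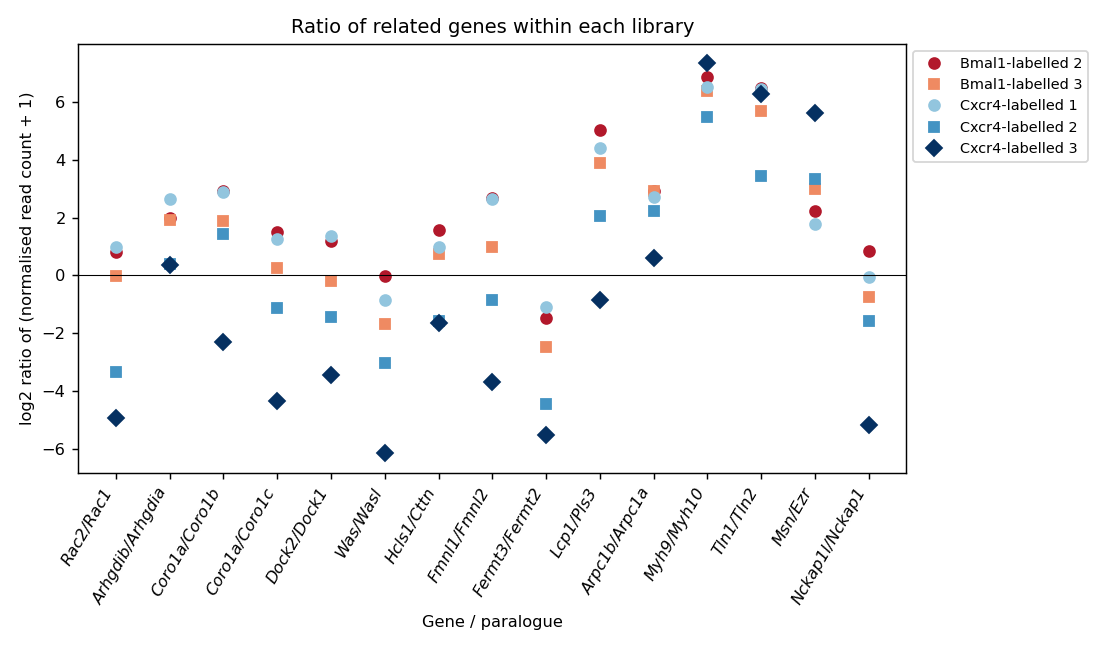
Log2 ratio of normalised read counts (plus 1) of each gene to its paralogue in each of the 5 libraries, 1 point per library. For Rac2/Rac1 the ratio goes from 0.98 in Cxcr4-labelled library 1 to -4.93 in library 3, while Myh9/Myh10 and Tln1/Tln2 are not lowest in library 3.

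Other genes of the pathway were read from a list of 86, of which 84 were in the table and 83 were tested. Of these, 49 had positive and 34 negative differences, with a median of 0.11, the same to 2 decimals as over all tested genes. None passed with limma, edgeR or DESeq2, and 5 (6.02%) had a limma unadjusted p under 0.05, where 4.18% of all genes did. That count was 0 with edgeR and 1 (Dstn) with DESeq2, so the share was near the background or below it. The 5 named here by the lowest limma p were Pak1, Prex1, Capza1, Rhoh and Apbb1ip, all higher in the Bmal1-labelled libraries and without overlap. Pak1, a kinase downstream of RAC and CDC42, had 39.1 and 22.0 against 12.9, 0.211 and 0.468, a difference of 3.38 (SE 1.24). The values of 0.211 and 0.468 correspond to 1 and 4 reads. Prex1, a RAC exchange factor of neutrophils, had 450.7 and 297.8 against 215.3, 145.9 and 57.0.

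Capza1, a subunit of the capping protein that closes filament ends, had 395.6 and 333.2 against 213.1, 137.6 and 153.8, a difference of 1.13 (SE 0.45). That of Apbb1ip, for the RAP1 effector RIAM that recruits talin to integrins, was 2.41 (SE 1.04). Rhoh, for a haematopoietic GTPase, had 16, 10, 0, 1 and 1 reads across the 5 libraries, Bmal1-labelled ones given before the others. At 0 reads, up to 3 reads or a value of 6.46 in Cxcr4-labelled library 1 cannot be told from 0, which is above its value in either Bmal1-labelled library.

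The negative genes with the lowest p were Dstn, Pls3, Cttn, Fmnl3 and Vcl. Dstn, for destrin, a relative of cofilin, had 81.5 and 87.4 against 180.8, 134.1 and 183.1, with no overlap and a difference of -0.95 (SE 0.44, limma unadjusted p 0.0595). Its difference was -0.88 without Cxcr4-labelled library 3. Pls3 had 63.1 and 100.9 against 90.4, 167.2 and 279.1, and Cttn 70.3 and 92.4 against 90.4, 167.6 and 235.7. Both were highest in Cxcr4-labelled library 3. Among the endothelial genes Kdr, Tek and Robo4 were highest there and the other 7 in library 2, and their part in these values was not tested.

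Apart from the endothelial genes, marker lists of other cells that use the same machinery had low sums. The endothelial genes, given above, summed to 0.480% and 0.627% against 0.517%, 0.849% and 1.02%. Smooth muscle and mural genes made up 0.0200% and 0.00448% of the Bmal1-labelled columns and between 0.00557% and 0.0210% of the Cxcr4-labelled ones, with Cspg4 at 0 in 3 libraries. Single genes of a list could still differ. Rgs5, a mural gene, had 15.3 and 20.2 against 96.9, 116.3 and 43.7, with no overlap. Of the 7 tested genes of that list, 4 had positive and 3 negative differences. Platelet genes, from cells rich in actin, summed to at most 0.0131%, and fibroblast genes to at most 0.00833%. Macrophage and monocyte genes summed to 0.0370% and 0.0236% against 0.0202%, 0.00575% and 0.00739%, B cell genes to at most 0.00252% and T and NK cell genes to at most 0.00165%. Erythroid genes summed to at most 0.00899% and eosinophil genes to at most 0.00335%. The haematopoietic members themselves summed to 0.641% and 0.413% against 0.687%, 0.156% and 0.0521%.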

How the data were processed

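RNA was amplified from sorted blood neutrophils with a single-cell kit before Illumina library construction, per the labels' protocols. GRCm38, RSEM 1.2.3, cutadapt and CASAVA 1.8.2 are listed, per the submitters' processing notes. The normalisation method and strand setting were not given in the sources used here. What the authors deposited is a signal per gene (normalised read counts). All values (100%) were whole multiples of the smallest in their library, within 0.01 of a read, and reads were recovered from them.

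Symbols came from GENCODE M21 (18847 of 19127 matched). limma 3.58.1 (R 4.3.3), with an intensity trend, was fitted to log2(value + 1). It covered 14632 genes whose mean CPM was 1 or more, with 3 residual degrees of freedom. The fit was also run on simulated reads with 200 genes changed by 3 log2 units. Their spread between libraries was fixed and not taken from these data, so that run does not measure power or error here. Differences are Bmal1-labelled minus Cxcr4-labelled, two-sided, with Benjamini-Hochberg adjustment over all genes. They understate differences of low genes. edgeR 4.0.16 (quasi-likelihood) and DESeq2 1.42.0 were run on recovered reads. Replicates of a group differed beyond sampling noise (chi-square per degree of freedom 23.5 to 162.5). Floors cover counting error only, since reads here carry no molecular identifiers. The alternatives were the pseudocount, the filter, scaling, variance trend, tool, a replicate block, each library left out and class membership.

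All members are named. Every library is given for haematopoietic members, for the 6 ubiquitous members with the lowest p and the 4 with the highest mean, and for Vim, Flna and several pairs, chosen after these were seen. From the pathway list, the 5 lowest p per direction are named. The other Arp2/3 genes and further exchange factor genes were added after their values were seen. Members, classes and lists were chosen with earlier results of these data known. One pair of related genes is not reported here.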

Additional observations from a re-analysis of the deposited data

How the results depend on the processing

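Depth limits little here, since every member had at least 26 reads in each library, while 5 libraries limit precision. The count of genes called was 0 in every limma and edgeR fit and 13 with DESeq2, and no member was called in any fit. Of 632 other values for single genes and pairs, 616 kept their direction. The sign of small differences turned for Rhoa (0.0077 with columns scaled to the same total), for Tpm3 (-0.0024 with edgeR, -0.0076 with DESeq2, -0.098 with the replicate block), and, on leaving out 1 library, for Tpm3 (-0.098 to 0.30), Rhoa (-0.19 to 0.071), Rac1 (-0.29 to 0.026), Cfl1 (-0.047 to 0.17), Myh9/Myh10 (-0.31 to 0.62), Tln1/Tln2 (-0.27 to 1.23) and Msn/Ezr (-1.87 to 0.060). The cause was not tested.

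Leaving out 1 library moved the median of haematopoietic members from 0.68 to 2.42, that of ubiquitous members from 0.32 to 0.80, the gap between them from 0.36 to 1.62, the count of positive members from 28 to 31 and that of positive pairs from 12 to 15. The lowest values of the medians and gap were without Cxcr4-labelled library 3 and the highest without Cxcr4-labelled library 1. With 1 Bmal1-labelled library left, it is assumed to vary like the other group. With edgeR the medians were 0.88 and 0.40 and the gap 0.48, and with DESeq2 0.79, 0.36 and 0.43. The median of all tested genes was -0.086 with edgeR and 0.11 with limma.

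Both groups have replicates numbered 2 and 3, which the labels link to no litter or day. Deviations of same-numbered libraries correlated at 0.38 over 14632 genes. They were taken from the mean of libraries 2 and 3 in each group, so both numbers give the same value. That value compares 1 contrast per group and cannot show a shared litter or day. The replicate block, in which Cxcr4-labelled library 1 has no partner, leaves fewer residual degrees of freedom than the 3 of the main fit. Its p-values therefore rest more on variance shared across genes. With the block the median of ubiquitous members was 0.80 and no gene was called. In that fit 25 of 32 members had an unadjusted p under 0.05 by limma, where 14.9% of all genes did. Without Cxcr4-labelled library 1 and with no block that count was 17, against 10.7% of all genes.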
